A study of Homo sapiens with 4 samples.

Results

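The genes described here are 37 named genes of cholesterol and fatty acid synthesis, of the SREBP proteins that control it and of the LXR pathway for cholesterol efflux, out of 25027 gene symbols or identifiers in the deposited tables. They were chosen by name, with earlier results on the same libraries in view (among them the changes in FPKM of ACLY and ABCA1), so their changes are given as a description and no test is attached to them. All 37 had rows in the files, and 34 passed the minimum level used for comparisons, which is 1 FPKM averaged over the 4 libraries, with a spliced length of 300 nt or more, as did 11065 genes in all. FPKM counts the fragments assigned to a transcript relative to the transcript's length and the library's mapped reads. NPC1L1, ABCG1 and MYLIP did not pass.

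Cells make cholesterol from acetyl-CoA through mevalonate and squalene, and fatty acids from the same precursor through malonyl-CoA. When membrane sterol is low, SCAP escorts the SREBP transcription factors (genes SREBF1 and SREBF2) from the endoplasmic reticulum to the Golgi for cleavage, and the freed factors switch on most genes of both routes. INSIG proteins hold SCAP back when sterol is plentiful, and oxidised sterols activate the LXR receptors (NR1H2 and NR1H3), which raise cholesterol export through ABCA1 and ABCG1 and also switch on SREBF1. The retinal pigment epithelium takes up and exports large amounts of lipid from shed photoreceptor membranes.

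The study knocked down SAF-A (gene HNRNPU), a nuclear RNA-binding protein of the chromatin scaffold, in RPE1, a human line derived from retinal pigment epithelium and kept dividing by telomerase. Cells at low confluency received 10 nM of Stealth siRNA with Lipofectamine RNAi MAX, either 1 siRNA against SAF-A or the supplier's negative control, and RNA was taken 24 h or 48 h later. Each of the 4 conditions is 1 library of total RNA depleted of ribosomal RNA, so the differences below have no replicate check and no p-value. With 1 siRNA against SAF-A, an effect of the knockdown and an effect of that siRNA on other transcripts cannot be told apart.

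The libraries differed in depth, and this touches every comparison with the last of them. The deposited values imply 28083822 and 30701282 mapped reads for control and SAF-A siRNA at 24 h, and 28586051 and 1216740 at 48 h. The 34 genes had a median of 1694 to 2267 estimated reads in the 3 deeper libraries and of 128 in the library of SAF-A siRNA at 48 h. HNRNPU stood at 91.2, 10.4, 84.6 and 9.24 FPKM in control and SAF-A cells at 24 h and then in control and SAF-A cells at 48 h (the order used below), which is 11.4% of control at 24 h and 10.9% at 48 h. Of the epithelial markers, MITF stood at 4.23 to 9.01 FPKM, and in the SAF-A library of 48 h KRT8 reached 15.4 and KRT18 23.3 FPKM. In the other 3 libraries the deposited estimates of KRT8 and KRT18 are marked as failed, with values outside their own bounds, and are uncertain. Of the mature markers, RPE65 was listed at 0 in all 4 libraries and RLBP1 and BEST1 did not exceed 0.969 FPKM. Markers of hepatocytes (3 genes) and endothelium (2 genes) summed to at most 0.0856 FPKM in any library, and those of adipocytes (3 genes) to at most 1.30 FPKM. The 2 immune markers summed to 7.35 to 11.3 FPKM, nearly all of it CD68, a lysosomal protein. In bulk RNA, a change in the number of cells of a kind and a change in RNA per cell cannot be told apart.

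At 24 h ACLY was higher with SAF-A siRNA, and none of the other genes reached 2-fold. On the scale of log2(FPKM + 1), where a gene is called changed at 2-fold or more, 1 of the 34 genes was called higher (ACLY) and 0 were called lower. Over all 11065 genes 0.425% were called higher and 0.262% lower at 24 h. The median change of the 34 genes was -0.12, against -0.07 over all genes, and 22 of 34 lay below the median of all genes. The deposited 95% intervals of 9 genes lay below those of the control, against 18.4% of all genes, and those of 1 gene above it, against 8.65% of all genes. These 9 were FASN, SCD, FADS1, MVD, FDFT1, SQLE, SCAP, STARD4 and ABCA1, and the ratio of SAF-A to control siRNA ran from 0.736 for STARD4 to 0.900 for FDFT1. The 9 came from every role and were short of 2-fold. The lowest change at 24 h was that of NR1H3, at a log2 change of -0.51 and with overlapping deposited intervals.

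At 48 h 13 of the 34 genes were called higher with SAF-A siRNA and 0 lower, against 14.3% of all genes higher and 18.5% lower. The 13 were ACLY and FADS2 of fatty acid synthesis, ACAT2 and MVK of the mevalonate steps, LSS, TM7SF2, MSMO1, NSDHL and HSD17B7 of the steps from squalene to cholesterol, the regulators INSIG1 and SREBF1, the transporter NPC1 and the receptor NR1H2. With FPKM rescaled to a fixed sum over transcripts of at least 300 nt, INSIG1 and MSMO1 lost their call. ELOVL6 was called lower under that scaling and 4 other alternatives (a pseudocount of 0.1 FPKM, TPM, centring and a 1.5-fold threshold). The median change was 0.79, against -0.11 over all genes, and 29 of 34 genes lay above the median of all genes. Shares over all genes varied with level. Of the 7721 genes averaging 5 FPKM or more, 17.0% were called higher and 16.7% lower (median 0.04). There 13 of 32 pathway genes were called (median 0.84). Of the 4178 with 50 or more estimated reads in every library, 26.2% were higher and 5.77% lower (median 0.44). There 12 of 30 pathway genes were called (median 0.84). This filter leaves out genes low in the library of SAF-A siRNA at 48 h. Deposited intervals lay above the control in 20 genes and below it in 2, SCD and ELOVL6, against 22.7% and 27.1% of all genes. By role, the median change was 0.17 for fatty acid synthesis (7 genes), 0.56 for the mevalonate steps (7), 0.94 for squalene to cholesterol (11), 1.00 for the SREBP regulators (4), 0.76 for sterol transport (2) and 0.80 for the LXR pathway (3).

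Across the 4 libraries 28 of the 34 genes were highest with SAF-A siRNA at 48 h, which was so for 41.2% of all genes. Control siRNA at 48 h was the highest library for 5 (SCD, ELOVL6, IDI1, SQLE and NR1H3) and control siRNA at 24 h for 1 (PMVK). ACLY alone was called higher at both times, against 0.208% of all genes. The median siRNA effect at 48 h minus that at 24 h was 0.91 on the log2 scale. In the same 48 h comparison the 10 markers of dividing cells summed to 563 FPKM in control cells and to 241 FPKM after SAF-A siRNA, and 8 of them were called lower. The 6 pigment epithelium markers summed to 302 and 44.0 FPKM, but most of the first sum is KRT18 (229 FPKM, deposited bounds 0 to 12.0) and KRT8 (63.9 FPKM, bounds 0 to 4.63), whose estimates failed there. MITF stood at 9.01 and 4.23 FPKM. The part of these shifts in the values of the lipid genes was not tested.

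**Figure D1:**
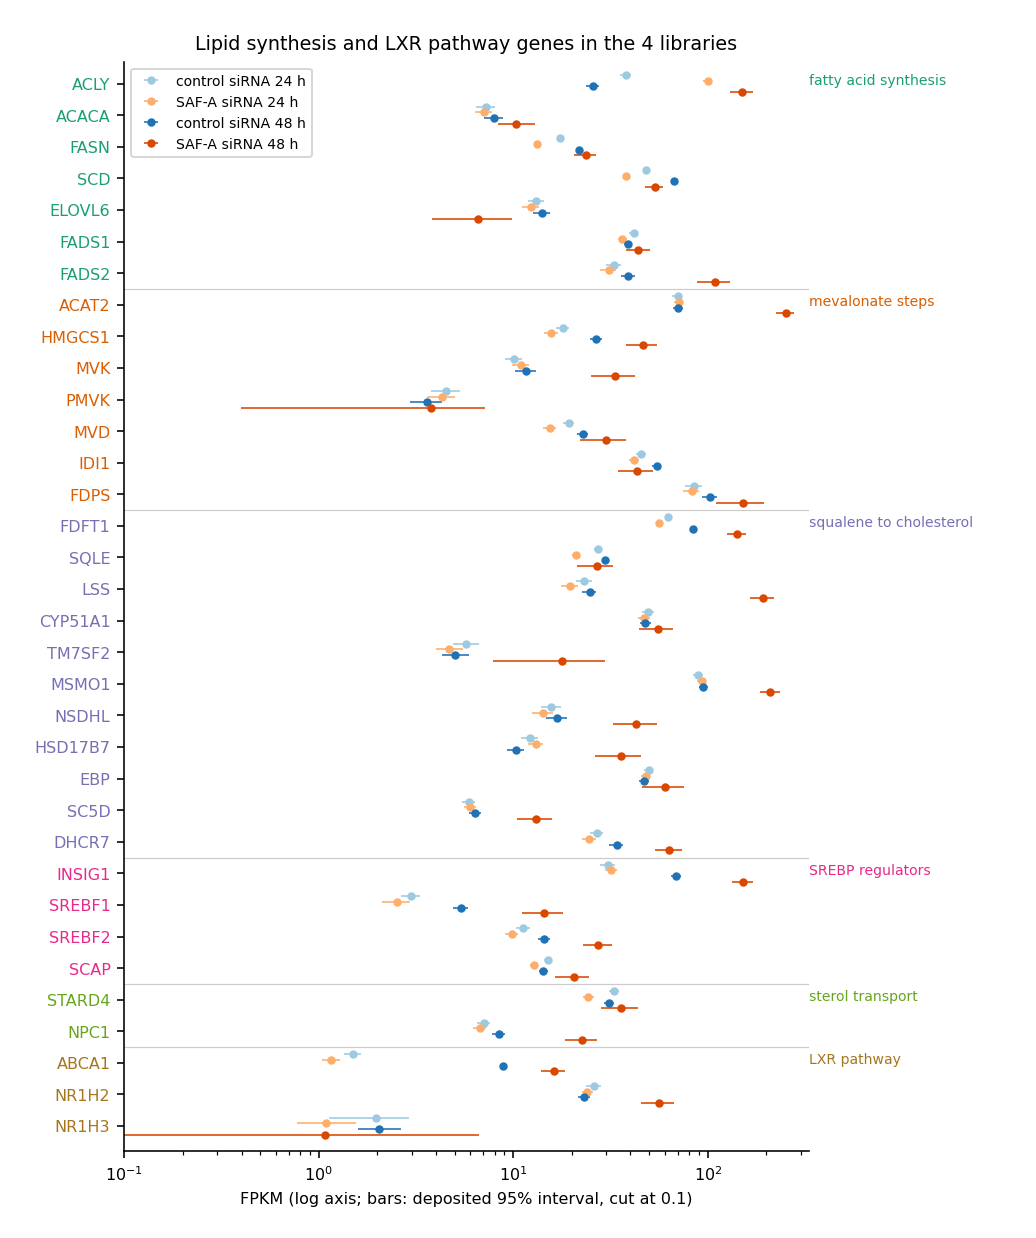
Level of each of the 34 genes above the minimum in the 4 libraries (FPKM, log axis), grouped by role, with deposited 95% intervals as bars (cut at 0.1). The dark orange points of SAF-A siRNA at 48 h lie farthest right for 28 of the 34 genes and carry the widest bars. Both orange points of ACLY lie to the right of its blue ones.

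Among the fatty acid synthesis genes, ACLY, ATP citrate lyase, cleaves citrate to the cytosolic acetyl-CoA that feeds both routes. ACLY (hg19 chr17:40023179-40075272, minus strand) stood at 37.9 FPKM (35.3 to 40.4) in control cells and 100.1 FPKM (94.9 to 105) in SAF-A siRNA cells at 24 h, and 25.7 FPKM (23.7 to 27.6) and 150.0 FPKM (129.9 to 170.0) at 48 h. Both SAF-A values lay above both control values, and no interval of one siRNA reached the other. The ratio of SAF-A to control siRNA was 2.64 (counting interval 2.56 to 2.74) at 24 h and 5.84 (counting interval 5.39 to 6.33) at 48 h. Counting intervals are exact Clopper-Pearson 95% intervals from the estimated reads and cover counting error only. Between 24 h and 48 h the ACLY ratio was 0.678 in control cells, and its later SAF-A value was the higher of the pair. Both RefSeq transcripts took part: NM_001096 went from 20.2 to 46.4 FPKM at 24 h and from 9.99 to 65.4 at 48 h, and NM_198830 from 17.6 to 53.7 and from 15.7 to 84.6.

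The other genes of this role split into a desaturase called higher at 48 h and the rest. FADS2, the delta-6 desaturase of polyunsaturated fatty acids (chr11:61583675-61634826, plus strand), stood at 32.8 FPKM (29.8 to 35.8) in control cells and 30.9 FPKM (28.0 to 33.8) in SAF-A siRNA cells at 24 h, and 38.9 FPKM (35.7 to 42.2) and 109 FPKM (88.2 to 129.9) at 48 h. The first 3 libraries lay close together and the fourth apart, with a ratio at 48 h of 2.80 (counting interval 2.52 to 3.10). Of its 3 transcripts, NM_004265 stood at 15.9 FPKM with control and 86.3 with SAF-A siRNA at 48 h and NM_001281502 at 3.36 and 18.3, while NM_001281501 stood at 19.7 and 4.43. This split is the deposited estimate and was not checked at the level of reads. FADS2 and its neighbour FADS1, the delta-5 desaturase, are on opposite strands and share 142 nt of exon. The level of FADS1 was 41.6, 36.4, 38.9 and 43.9 FPKM, so that it stayed within a narrow range where FADS2 did not.

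ELOVL6, which lengthens the saturated products of fatty acid synthase (chr4:110970229-111119820, minus strand), was the gene with the lowest change at 48 h. It stood at 13.1 FPKM (11.9 to 14.3) in control cells and 12.3 FPKM (11.1 to 13.6) in SAF-A siRNA cells at 24 h, and 14.0 FPKM (12.6 to 15.4) and 6.61 FPKM (3.84 to 9.90) at 48 h. The last value rested on 24 estimated reads, its interval lay below that of the control library, and the ratio at 48 h was 0.473 (counting interval 0.302 to 0.707). On the log2(FPKM + 1) scale, which understates the change of low genes, the change was -0.98 and short of a call. SCD, the delta-9 desaturase that makes oleate, stood at 48.0, 38.0, 67.0 and 53.2 FPKM, lower with SAF-A siRNA by a ratio of 0.793 at 24 h and 0.794 at 48 h. FASN, fatty acid synthase, stood at 17.4, 13.3, 21.7 and 23.6 FPKM, and ACACA, acetyl-CoA carboxylase, at 7.22, 7.05, 7.93 and 10.3 FPKM. Neither enzyme of the core route from acetyl-CoA to palmitate was called at 48 h, with log2 changes of 0.12 and 0.34, whereas ACLY just upstream was.

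**Figure D2:**
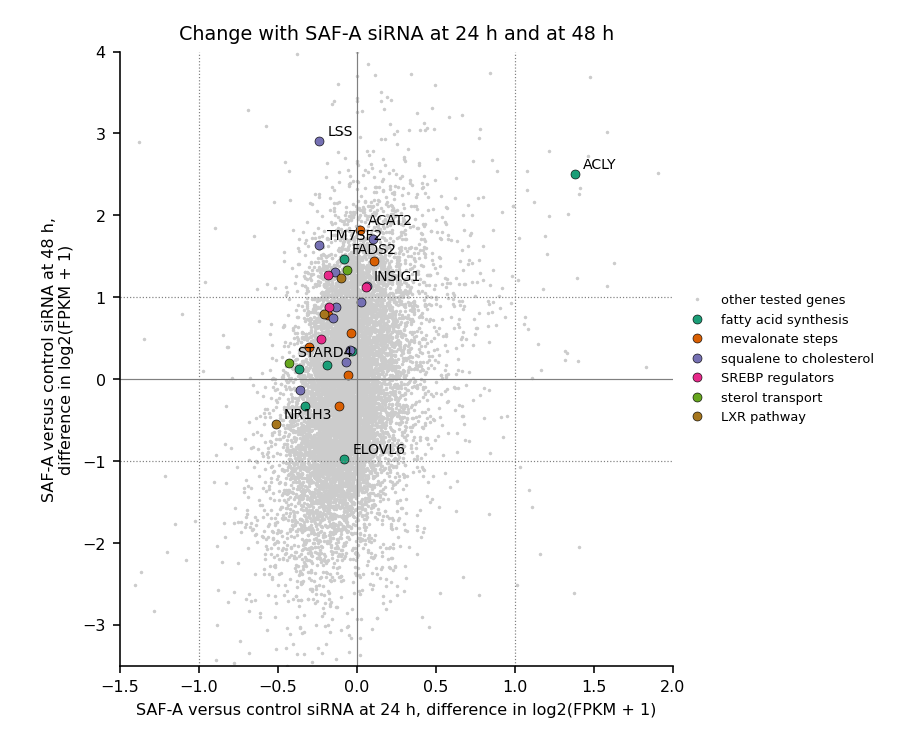
Difference in log2(FPKM + 1) between SAF-A and control siRNA at 24 h (horizontal) and at 48 h (vertical) for the 34 genes, coloured by role, over the other genes above the minimum in grey (56 genes lie outside the axes), with dotted lines at 2-fold. ACLY sits alone at the upper right, 12 other coloured points lie above the upper dotted line close to 0 on the horizontal axis, and ELOVL6 lies just above the lower one.

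In the mevalonate steps, ACAT2, the cytosolic thiolase that joins acetyl-CoA units (chr6:160182989-160200087, plus strand), stood at 69.8 FPKM (65.8 to 73.9) in control cells and 70.8 FPKM (66.8 to 74.8) in SAF-A siRNA cells at 24 h, and 70.3 FPKM (66.2 to 74.3) and 251 FPKM (224 to 278) at 48 h. The 3 deeper libraries lay between 69.8 and 70.8 FPKM and the ratio at 48 h was 3.57 (counting interval 3.21 to 3.96). ACAT2 shares 397 nt, 25.6% of its exon sequence, with TCP1 on the opposite strand, and use of strand in counting is not given in the sources used here. TCP1, a chaperonin subunit, stood at 194, 186, 178 and 142 FPKM, so it was lowest in the library where ACAT2 was highest.

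MVK, mevalonate kinase (chr12:110011500-110035071, plus strand), stood at 10.0 FPKM (9.05 to 11.1) in control cells and 10.9 FPKM (9.86 to 12.0) in SAF-A siRNA cells at 24 h, and 11.6 FPKM (10.2 to 13.0) and 33.1 FPKM (25.1 to 42.0) at 48 h. Its ratio at 48 h was 2.85 (counting interval 2.21 to 3.63), from 75 estimated reads. The 2 transcripts of MVK are 2073 and 2064 nt long, and the deposited estimate moved nearly all of the level from one to the other between libraries, control libraries included, so only their sum is used. HMGCS1, which makes HMG-CoA (chr5:43287572-43313614, minus strand), stood at 17.9 FPKM (16.5 to 19.4) in control cells and 15.7 FPKM (14.4 to 17.0) in SAF-A siRNA cells at 24 h, and 26.6 FPKM (24.8 to 28.4) and 46.3 FPKM (37.9 to 54.6) at 48 h. It was higher at 48 h than at 24 h already with control siRNA, by a ratio of 1.48, and the ratio of SAF-A to control siRNA at 48 h was 1.74 (counting interval 1.54 to 1.96), short of a call. At 48 h its transcript NM_001098272 stood at 8.39 FPKM with control and 40.5 with SAF-A siRNA, and NM_002130 at 18.2 and 5.81. They are 5450 and 5391 nt long, and with SAF-A siRNA at 48 h had 258 and 37 estimated reads. This split too is the deposited estimate and was not checked.

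The 4 remaining mevalonate genes were not called at either time. FDPS, which makes farnesyl diphosphate, stood at 84.7, 82.4, 102 and 151 FPKM, and MVD, the mevalonate diphosphate decarboxylase, at 19.2, 15.4, 22.7 and 30.0 FPKM. IDI1, the isopentenyl diphosphate isomerase, stood at 45.3, 41.8, 54.6 and 43.4 FPKM and was highest in the control library at 48 h. PMVK, phosphomevalonate kinase, stood at 4.52, 4.31, 3.61 and 3.75 FPKM, the last from 5 estimated reads, so that no difference was detectable at this depth.

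Of the 11 genes from squalene to cholesterol, 5 were called higher at 48 h (14.3% of all genes) and 10 had a change above 0 (45.9% of all genes). LSS, lanosterol synthase, which closes the sterol ring (chr21:47608360-47648738, minus strand), had the largest change of the 34 genes. It stood at 23.2 FPKM (21.0 to 25.4) in control cells and 19.6 FPKM (17.6 to 21.5) in SAF-A siRNA cells at 24 h, and 24.6 FPKM (22.6 to 26.7) and 191 FPKM (164 to 218) at 48 h. The first 3 libraries lay between 19.6 and 24.6 FPKM, and the ratio at 48 h was 7.75 (counting interval 7.11 to 8.44). As estimated reads scaled by mapped reads only (RPM), LSS stood at 98.8 RPM in control cells and 541 RPM after SAF-A siRNA at 48 h, a ratio of 5.48.

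In the deposited estimate 1 transcript carried most of that difference. Whether reads at the terminal exon of this transcript carry the difference cannot be read from the deposited values. NM_001001438 stood at 1.40, 0.678, 1.07 and 149.6 FPKM in the 4 libraries, and its share of LSS at 48 h was 4.36% with control and 78.3% with SAF-A siRNA. This transcript ends in an exon at chr21:47608360-47608735 (hg19) and lacks most of the terminal exon of 2112 nt, chr21:47609038-47611149, that the 3 other transcripts share. The most abundant of the others, NM_002340, stood at 19.0, 13.0, 20.0 and 35.1 FPKM. Without NM_001001438 the log2 change of LSS at 48 h was 0.79 in place of 2.90, which is below 2-fold, and the number of genes called higher was 12. Leaving it out may also leave out reads of exons shared with the other transcripts, so 0.79 sets no bound on the change. A shift in transcript shares of at least 0.3 at 48 h was found in 7 of the 18 pathway genes that reached 5 FPKM in both libraries compared and have more than 1 transcript, and in 38.1% of all such genes, against 1 of 16 and 9.14% at 24 h. The measure is the summed absolute difference in transcript shares divided by 2.

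**Figure D3:**
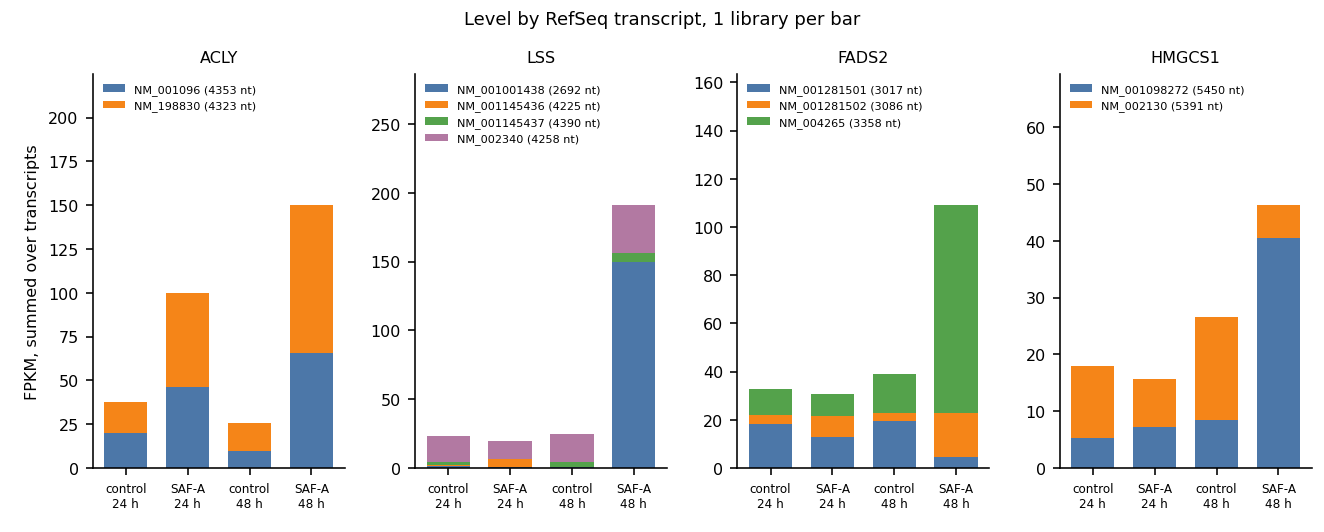
Deposited estimates of FPKM by RefSeq transcript, stacked, in the 4 libraries for ACLY, LSS, FADS2 and HMGCS1 (each panel has its own axis from 0). In ACLY both transcripts are larger with SAF-A siRNA, whereas NM_001001438 of LSS (149.6 FPKM) and NM_004265 of FADS2 (86.3 FPKM) form most of the last bar of their panels.

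HSD17B7, the 3-keto-sterol reductase (chr1:162760496-162782608, plus strand), stood at 12.2 FPKM (11.0 to 13.3) in control cells and 13.1 FPKM (12.0 to 14.3) in SAF-A siRNA cells at 24 h, and 10.3 FPKM (9.23 to 11.3) and 35.8 FPKM (26.1 to 45.4) at 48 h. Its ratio at 48 h was 3.48 (counting interval 2.57 to 4.58), with 57 estimated reads, and the transcribed pseudogene HSD17B7P2, named in RefSeq, stood at 4.47, 4.77, 4.98 and 8.75 FPKM. Whether the counting divided reads between gene and pseudogene was not tested, so the level of HSD17B7 is uncertain. TM7SF2, a sterol C14 reductase (chr11:64879326-64883707, plus strand), stood at 5.71 FPKM (4.90 to 6.62) in control cells and 4.69 FPKM (3.99 to 5.48) in SAF-A siRNA cells at 24 h, and 5.03 FPKM (4.29 to 5.89) and 17.8 FPKM (7.82 to 29.6) at 48 h. The last value rested on 30 estimated reads, with a ratio at 48 h of 3.53 (counting interval 2.31 to 5.18), and its interval just cleared that of the control. The enzymes that strip methyl groups from the ring were also called higher at 48 h, apart from CYP51A1: MSMO1, the methylsterol oxidase, stood at 89.0, 92.9, 94.8 and 209.9 FPKM, and NSDHL, the decarboxylating dehydrogenase that follows it, at 15.7, 14.2, 16.8 and 42.9 FPKM. CYP51A1, the lanosterol demethylase that acts first, stood at 49.4, 47.0, 47.8 and 55.2 FPKM and its intervals overlapped at both times.

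The remaining genes of this stretch were short of 2-fold on the log2(FPKM + 1) scale. FDFT1, squalene synthase, stood at 62.2, 56.0, 84.0 and 142 FPKM, and SQLE, squalene epoxidase, at 27.2, 21.0, 29.6 and 26.9 FPKM. At 48 h the ratio was 1.69 (counting interval 1.51 to 1.89) for FDFT1 and 0.906 (counting interval 0.726 to 1.12) for SQLE, the next enzyme in the route. SC5D, the sterol C5 desaturase, stood at 5.88, 6.02, 6.34 and 13.0 FPKM, and DHCR7, which performs the last reduction to cholesterol, at 27.0, 24.5, 33.9 and 63.4 FPKM. SC5D had a ratio of 2.06 at 48 h but a log2(FPKM + 1) change of 0.94, since that scale understates the change of low genes. EBP, the sterol isomerase, stood at 49.5, 48.1, 47.1 and 60.4 FPKM and its intervals overlapped at both times.

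All 4 regulators of SREBP activity were highest with SAF-A siRNA at 48 h, as were 41.2% of all genes. INSIG1, which retains SCAP in the endoplasmic reticulum and is itself an SREBP target (chr7:155089486-155101945, plus strand), stood at 30.6 FPKM (28.0 to 33.3) in control cells and 31.9 FPKM (29.5 to 34.3) in SAF-A siRNA cells at 24 h, and 68.7 FPKM (64.4 to 73.1) and 152 FPKM (133 to 171) at 48 h. At 24 h the 2 siRNAs could not be distinguished, and at 48 h the ratio was 2.21 (counting interval 2.01 to 2.42). With control siRNA alone INSIG1 was 2.24-fold higher at 48 h than at 24 h, so time and SAF-A siRNA each came with a change of about the same size. SREBF1, the factor with most weight on fatty acid genes (chr17:17714663-17740325, minus strand), stood at 2.98 FPKM (2.65 to 3.32) in control cells and 2.52 FPKM (2.104 to 2.93) in SAF-A siRNA cells at 24 h, and 5.37 FPKM (4.91 to 5.84) and 14.3 FPKM (11.1 to 17.9) at 48 h. Its ratio was 1.80 between the control libraries and 2.67 (counting interval 2.09 to 3.35) between the siRNAs at 48 h.

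SREBF2, the factor with most weight on sterol genes (chr22:42229083-42303312, plus strand), stood at 11.2 FPKM (10.4 to 12.1) in control cells and 9.82 FPKM (9.02 to 10.6) in SAF-A siRNA cells at 24 h, and 14.4 FPKM (13.3 to 15.4) and 27.3 FPKM (22.9 to 32.0) at 48 h, with a ratio at 48 h of 1.90 (counting interval 1.61 to 2.22), just short of a call. SCAP, the escort protein, stood at 15.1, 12.8, 14.3 and 20.5 FPKM and had the smallest change of the 4. The promoter of SREBF2 is shown because, among 32 pathway genes with a promoter in the RefSeq table used (44 windows of 300 bases, GRCh38.p14), it alone held the core of a sterol response element, TCACNCCAC on either strand. The 250 bases before its start site (chr22:41832855-41833104, plus strand) are printed 5′ to 3′, with that core at -133 and an inverted CCAAT box, the letters bound by NF-Y, in capitals.
SREBF2: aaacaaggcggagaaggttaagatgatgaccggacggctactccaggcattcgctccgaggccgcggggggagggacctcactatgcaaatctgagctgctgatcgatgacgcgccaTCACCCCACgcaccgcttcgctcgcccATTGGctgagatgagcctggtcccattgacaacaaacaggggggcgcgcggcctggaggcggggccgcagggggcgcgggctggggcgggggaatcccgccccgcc

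Over all 35116 promoter windows of that length 1.13% held the core, and 1 of 44 windows of the pathway genes did. CCAAT on either strand was in the windows of 23 of the 32 genes (71.9%), and in those of 44.5% of the genes above the minimum level. By window the shares were 61.4% of 44 and 34.6% of all. The 21 genes with CCAAT and above the minimum had a median change of 0.88 at 48 h and 9 calls, and the 9 without it a median of 0.49 and 3 calls. Of all genes above the minimum with a window, 13.3% of the 3935 with CCAAT and 15.1% of the 4899 without it were called higher. GGGCGG, bound by SP1, was in 30 of 32 (78.0% of genes above the minimum), and the E-box CACGTG in 5 of 32 (12.9%). Matches describe letters in a window and not sites in use, and 5 genes (ACAT2, FASN, FDFT1, SQLE and ABCG1) were not in the table. The windows of ACLY, the gene called at both times, and LSS, the gene with the largest change at 48 h, are shown. That of MVK, with 5 CCAAT boxes and a call at 48 h, is shown too. NSDHL also had 5 CCAAT boxes and a call at 48 h and is not shown. The printed parts run up to the start site, with CCAAT or its inverse ATTGG in capitals. They lie at chr17:41919023-41919272, minus strand, at chr21:46228775-46229024, minus strand and at chr12:109573544-109573793, plus strand (GRCh38.p14).
ACLY: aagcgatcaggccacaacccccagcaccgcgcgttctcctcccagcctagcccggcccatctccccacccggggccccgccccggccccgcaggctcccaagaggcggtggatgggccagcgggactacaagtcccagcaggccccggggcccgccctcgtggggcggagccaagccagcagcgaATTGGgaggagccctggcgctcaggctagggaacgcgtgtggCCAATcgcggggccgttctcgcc
LSS: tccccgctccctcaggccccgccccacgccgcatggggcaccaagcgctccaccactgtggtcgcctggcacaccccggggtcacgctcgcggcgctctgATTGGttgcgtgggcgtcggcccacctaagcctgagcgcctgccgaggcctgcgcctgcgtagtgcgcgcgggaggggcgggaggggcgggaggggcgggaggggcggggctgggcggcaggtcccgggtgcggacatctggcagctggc
MVK: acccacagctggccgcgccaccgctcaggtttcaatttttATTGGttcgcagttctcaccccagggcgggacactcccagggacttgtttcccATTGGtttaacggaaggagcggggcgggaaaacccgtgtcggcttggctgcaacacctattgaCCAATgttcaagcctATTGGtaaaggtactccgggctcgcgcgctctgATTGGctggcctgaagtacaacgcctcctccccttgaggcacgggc

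Of the 2 sterol transport genes above the minimum, 1 was called higher at 48 h, when 14.3% of all genes were. NPC1, which moves cholesterol out of lysosomes (chr18:21111463-21166581, minus strand), stood at 7.03 FPKM (6.48 to 7.59) in control cells and 6.71 FPKM (6.18 to 7.23) in SAF-A siRNA cells at 24 h, and 8.39 FPKM (7.77 to 9.01) and 22.6 FPKM (18.4 to 26.8) at 48 h. The first 3 libraries lay between 6.71 and 8.39 FPKM and the ratio at 48 h was 2.69 (counting interval 2.23 to 3.24). It shares 183 nt with RMC1 and related transcripts on the opposite strand, and RMC1 stood at 11.8, 10.9, 10.9 and 6.09 FPKM. Over the same 183 nt NR_075075 did not exceed 0.00194 FPKM in the first 3 libraries and stood at 20.3 FPKM in the last, where NPC1 was highest too, and its part in the value of NPC1 was not tested. STARD4, a soluble carrier of sterol between membranes (chr5:110834022-110848157, minus strand), stood at 33.0 FPKM (30.9 to 35.0) in control cells and 24.3 FPKM (22.7 to 25.9) in SAF-A siRNA cells at 24 h, and 31.1 FPKM (29.2 to 33.1) and 35.9 FPKM (28.1 to 43.7) at 48 h. Its ratio was 0.736 (counting interval 0.688 to 0.788) at 24 h and 1.15 (counting interval 0.921 to 1.42) at 48 h. NPC1L1, the intestinal cholesterol importer, was listed at 0 in 3 libraries and at 0.0137 FPKM with SAF-A siRNA at 24 h.

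In the LXR pathway the exporter ABCA1 and the receptor NR1H2 followed different courses. ABCA1, which loads cholesterol onto apolipoprotein A-I (chr9:107543284-107690527, minus strand), stood at 1.49 FPKM (1.35 to 1.64) in control cells and 1.16 FPKM (1.04 to 1.28) in SAF-A siRNA cells at 24 h, and 8.89 FPKM (8.54 to 9.24) and 16.2 FPKM (13.9 to 18.5) at 48 h. All 4 intervals were separate, in the order SAF-A 24 h, control 24 h, control 48 h and SAF-A 48 h. Between the control libraries the ratio was 5.95 (counting interval 5.38 to 6.61), at 48 h SAF-A siRNA added a ratio of 1.82 (counting interval 1.57 to 2.102), short of a call, and within SAF-A siRNA the ratio over time was 14.0 (counting interval 11.7 to 16.6). Its promoter is shown because it alone among the 32 genes held an LXR response element, read as 2 AGGTCA half-sites in the same direction with 4 bases between them and at most 1 mismatch in each, which 1.38% of all windows hold. The element, in capitals, reads on the reverse strand and starts at -69 in the 250 bases before the start site (chr9:104928156-104928405, minus strand, GRCh38.p14).
ABCA1: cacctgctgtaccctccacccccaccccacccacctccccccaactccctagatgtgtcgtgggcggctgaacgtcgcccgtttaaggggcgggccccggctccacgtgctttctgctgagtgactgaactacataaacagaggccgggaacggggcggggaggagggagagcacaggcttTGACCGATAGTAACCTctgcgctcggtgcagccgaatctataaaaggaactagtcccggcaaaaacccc

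NR1H2, the LXR-beta receptor found in most cells (chr19:50879680-50886285, plus strand), stood at 25.9 FPKM (23.6 to 28.1) in control cells and 24.0 FPKM (22.4 to 25.7) in SAF-A siRNA cells at 24 h, and 23.2 FPKM (21.6 to 24.9) and 55.8 FPKM (45.5 to 67.0) at 48 h. The first 3 libraries lay between 23.2 and 25.9 FPKM, and the ratio at 48 h was 2.40 (counting interval 1.99 to 2.88). NR1H3, the LXR-alpha receptor, stood at 1.97, 1.08, 2.03 and 1.07 FPKM, the last from 2 estimated reads, so no difference was detectable at 48 h. At 24 h its ratio was 0.550 (counting interval 0.381 to 0.786), from 86 and 51 estimated reads, and the deposited intervals overlapped. It shares 198 nt with ACP2 on the opposite strand, which stood at 10.4, 10.4, 12.1 and 35.4 FPKM. MYLIP, an LXR target that degrades lipoprotein receptors, stood at 0.0994, 0.216, 0.342 and 1.15 FPKM, and its last value rested on 4 reads with a lower bound of 0. Between the control libraries its ratio was 3.44 (counting interval 1.53 to 8.73), from 8 and 28 estimated reads, with separate deposited intervals. ABCG1, the second LXR exporter, was listed at 0 in 3 libraries and at 0.0120 FPKM with SAF-A siRNA at 24 h. Of the genes named here as LXR targets, ABCA1 and SREBF1 were thus above the minimum level, and ABCG1 and MYLIP were below it.

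**Figure D4:**
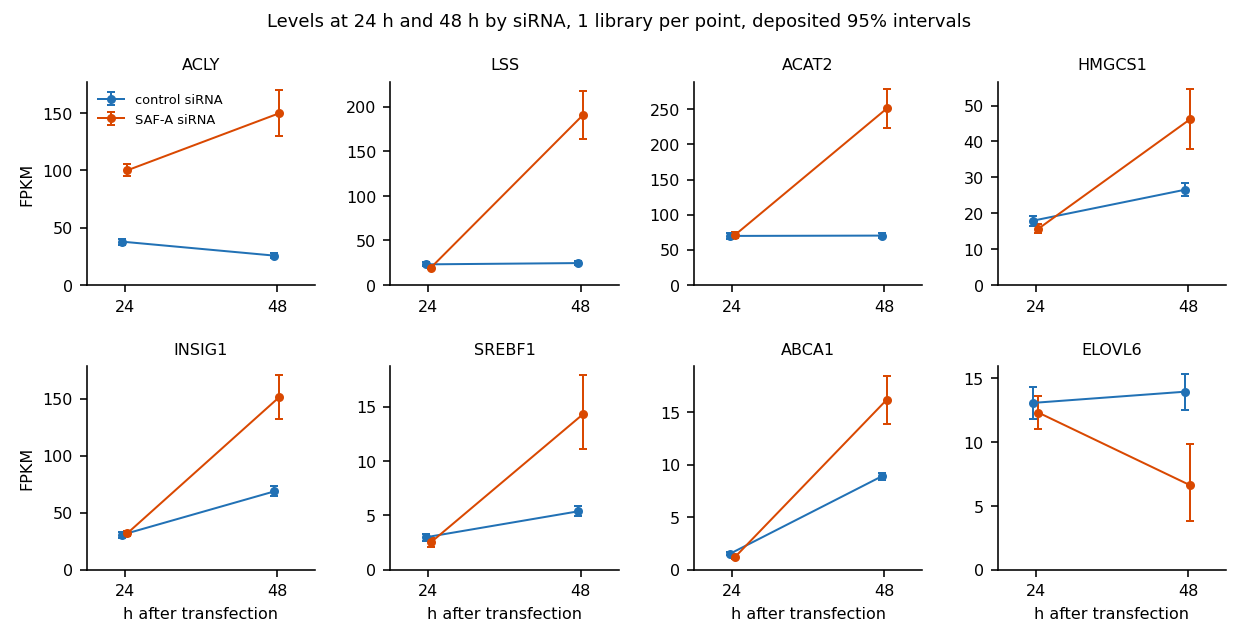
FPKM at 24 h and 48 h by siRNA for 8 genes, with deposited 95% intervals and 1 library per point (each panel has its own axis from 0). INSIG1, SREBF1, HMGCS1 and ABCA1 are higher at 48 h than at 24 h with control siRNA too (INSIG1 30.6 and 68.7 FPKM), ACLY differs between the siRNAs at both times, LSS and ACAT2 only in the last library, and ELOVL6 is lowest in that library.

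Change over time was also read within each siRNA. Between the control libraries 2 of the 34 genes were called higher at 48 h, ABCA1 and INSIG1, and 0 lower, against 0.578% and 0.452% of all genes. SREBF1 followed with a log2 change of 0.68, then HMGCS1 with 0.54 and SCD with 0.47, and ACLY was lowest with -0.54. The median of the 34 genes was 0.11, against 0.03 over all genes. Within SAF-A siRNA 18 genes were called higher at 48 h and 0 lower, against 15.5% and 16.0% of all genes, with a median of 1.08. ACLY, already apart from control at 24 h, was not among the 18, with a log2 change of 0.58. These comparisons share libraries with those between the siRNAs, so the values stand side by side and do not support one another.

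Other genes of the same pathways, taken from lists set by name and not by how they moved, had 0 calls at 24 h and calls in both directions at 48 h, when 14.3% of all genes were called higher and 18.5% lower. The share called higher was 12.5% among other lipid synthesis genes and 8.33% among SREBP processing genes, neither above that of all genes. Among sterol handling, fatty acid oxidation and other LXR genes it was 40.0%, 30.0% and 16.7%, above that of all genes. Those lists hold 5, 10 and 6 genes above the minimum. Of 16 other lipid synthesis genes 2 were called higher and 2 lower: SLC25A1, the mitochondrial citrate exporter just upstream of ACLY, stood at 4.76, 4.81, 9.16 and 35.5 FPKM, and ACSS2, which makes acetyl-CoA from acetate, at 4.22, 3.60, 4.34 and 11.3 FPKM. TMEM97, a sterol-regulated membrane protein, stood at 33.7, 28.3, 28.9 and 9.73 FPKM and PDSS1, of the coenzyme Q side chain, at 8.91, 7.37, 6.63 and 1.74 FPKM, the last from 3 reads. Of 12 genes of SREBP processing and its cofactors 1 was called higher and 2 lower, with MBTPS1, the site-1 protease that cleaves SREBPs, at 22.8, 21.2, 25.2 and 71.4 FPKM and SP1, a cofactor, at 9.30, 8.33, 9.25 and 3.45 FPKM. The second gene called lower, MBTPS2, the site-2 protease, is named after its value was seen and stood at 4.24, 3.46, 3.35 and 0.761 FPKM, the last from 4 reads.

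Of 5 other sterol handling genes 2 were called higher and 0 lower, with a median change of 0.75. NPC2, the lysosomal partner of NPC1, stood at 131, 147, 155 and 774 FPKM and STARD3, a late endosomal sterol carrier, at 9.57, 7.94, 9.45 and 25.9 FPKM. Of 6 other LXR genes 1 was called higher and 0 lower (SMPDL3A, a secreted phosphodiesterase, named after its value was seen, at 2.06, 2.43, 2.76 and 8.84 FPKM), and of 10 genes of fatty acid oxidation 3 were called higher and 0 lower, with a median of 0.52. The 3 were ETFA, an electron carrier of that route, at 82.3, 86.4, 94.7 and 243 FPKM, HADHB, of the trifunctional protein, at 33.6, 34.2, 45.4 and 107 FPKM, and ACADM, a dehydrogenase named after its value was seen, at 12.5, 15.8, 12.7 and 27.9 FPKM. LBR, a nuclear envelope protein that is also a sterol C14 reductase like TM7SF2, had the highest 24 h change of the other lipid synthesis genes, 0.83, and stood at 24.0, 43.5, 20.7 and 33.0 FPKM. Its SAF-A value at 24 h lay outside its own deposited bounds (0 to 2.31 FPKM), and its estimate is marked as failed.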

How the data were processed

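RNA was measured in 4 libraries of RPE1 cells, 1 per siRNA and time, read as 50-base single-end reads. Per the submitters' processing notes the reads were handled with TopHat2 2.0.10, Bowtie2 2.1.0 and Cufflinks 2.2.1 on hg19. The authors deposited FPKM with 95% bounds per RefSeq transcript, per the file headers, and a coverage signal per transcript, from which depth was derived. The strand setting is not given in the sources used here.

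FPKM and bounds of the 47338 rows were summed per gene symbol (97.1% matched, RefSeq names of GRCh38.p14), and summed bounds are wide. Changes are differences in log2(FPKM + 1), called at 2-fold, among genes that average 1 FPKM or more and are 300 nt or longer when spliced. Estimated reads are FPKM times effective length (fragments of 200 ± 80 nt) times mapped reads, and 1 FPKM of a 2 kb transcript is 50.5 to 55.2 reads in 3 libraries and 2.19 in the fourth. With 1 library per group no test was made.

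The members and lists were chosen with earlier results of these data known. Genes given with bounds in all libraries are those called alike at both times, the 3 of each role with the largest mean change and the 3 with the largest change between control libraries, all averaging 5 FPKM or more. Other lists are given by counts and their extremes. Motifs were searched on both strands of RefSeq promoter windows of 300 bases. Alternatives were other pseudocounts, filters, thresholds, scalings and interval rules. The code was tested on simulated data. Python 3.11.15, numpy 2.4.6, scipy 1.17.1 and pandas 2.3.3 were used.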

Additional observations from a re-analysis of the deposited data

Results flagged for a closer look

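The siRNA effect on the 34 genes had opposite signs at the 2 times when summarised by the median log2 change, -0.12 at 24 h and 0.79 at 48 h, a difference of 0.91. The difference was not tested, since each time has 1 library per siRNA, and the 24 h median lay close to that of all genes (-0.07).

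Among single genes, 7 of the 13 called at 48 h had a change of the opposite sign at 24 h. A change below 0 was the more common sign at 24 h, since 35.7% of all genes and 20.6% of the 34 lay above 0. The same count was not made over all genes. The log2 change at 48 h minus that at 24 h was 3.14 for LSS, 1.88 for TM7SF2, 1.55 for FADS2, 1.45 for SREBF1, 1.44 for NSDHL, 1.39 for NPC1 and 1.33 for NR1H2. None of these differences was tested. The 24 h changes of the 7 lay between -0.24 and -0.06, and the number of such genes depended on the scaling. It was 6 after centring on the median change of genes that average 5 FPKM or more, 8 in TPM over transcripts of at least 300 nt and 12 in TPM, where ACAT2, MVK, MSMO1, HSD17B7 and INSIG1 were negative at 24 h too.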

How the results depend on the processing

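Each condition has 1 library and 1 siRNA against SAF-A was used. The library of SAF-A siRNA at 48 h had 1216740 mapped reads, and PMVK, NR1H3, TM7SF2 and ELOVL6 rested on 2 to 30 estimated reads there. No paired analysis was possible because each condition has 1 library, and leaving out a library would remove a condition.

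Of 124 counts and medians under alternatives 112 stayed within their tolerance. The tolerance is 1.5 times for a count, 0.1 on the log2 scale for a median and the counting interval for HNRNPU. Some of the 112 could not move. The shortest pathway gene, EBP, is 1157 nt when spliced, so dropping the minimum length of 300 nt could not change their counts. Without the 10 genes that share exon sequence with another gene, 8 of 24 were called higher at 48 h, against 14.3% of all genes. ELOVL6 was called lower at 48 h, 1 gene in place of 0, with a pseudocount of 0.1 (log2 change -1.07), in TPM (-1.01), after centring (-1.02), at 1.5-fold, and in TPM over transcripts of at least 300 nt (-1.26). At 1.5-fold and in TPM over transcripts of at least 300 nt, 1 gene was called lower over time with SAF-A siRNA, where the log2 change in that TPM was -1.05. The difference between the effects at 48 h and 24 h, taken per gene, had middle values of 0.907 (SC5D) and 0.962 (HMGCS1) without rescaling. Its median was 1.07 in TPM and 0.83 after centring. In TPM over transcripts of at least 300 nt it was 0.79. This measure is not the difference of the 2 medians, 0.91, given above. HNRNPU stood at 10.1% of control at 24 h in TPM.

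TPM over transcripts of at least 300 nt, chosen after seeing the data like the alternatives on shared exons, reads and LSS transcripts, moved the median of all genes at 48 h by -0.23. In it INSIG1 (0.90) and MSMO1 lost their call at 48 h, and 10.7% of all genes were higher and 27.8% lower. TPM moved the median of all genes by -0.16 at 24 h, and over time with SAF-A siRNA it gave 21.2% of all genes higher and 12.1% lower. In TPM over transcripts of at least 300 nt 24 of 34 genes had a change above 0 at 48 h, in place of 29, and FASN, FADS1, PMVK, CYP51A1 and STARD4 changed sign. Without rescaling 45.9% of all genes lay above 0 at 48 h. In this TPM the median of all genes was -0.34, and 29 of the 34 genes lay above it, as many as without rescaling.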
